A study of Mus musculus with 40 samples.

Results

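Transcripts of the transcription factor Foxp3 and of 4 Ikaros family zinc finger genes, Ikzf1 (Ikaros), Ikzf2 (Helios), Ikzf3 (Aiolos) and Ikzf4 (Eos), were followed across mouse CD4+ T cells from 10 body sources. The genes were taken by name, without regard to their values, and are 5 of the 55421 genes in the count table. Each library came from 2000 sorted cells of perfused animals whose genotype is labelled WT. CD4+ cells carrying the Foxp3-Thy1.1 reporter were taken as regulatory T cells (Treg), and CD4+ cells without it as conventional T cells (Tconv). Kidney, pancreas, liver, lung, small intestinal LPL (lamina propria lymphocytes), small intestinal IEL (intraepithelial lymphocytes), Peyer's patch, spleen, blood and lymph node each gave 3 Treg libraries and 1 Tconv library, 40 libraries in all. Blood, spleen and lymph node are called lymphoid below, kidney, liver, lung and pancreas solid organs, IEL and LPL the gut wall, and the organs with the gut wall tissue, while Peyer's patch is kept apart from both. Strain, age and sex are not given in the sources used here. The labels do not say that replicates came from separate animals, so the p-values measure only the spread between these libraries.

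Foxp3 is the lineage factor of Treg, a forkhead protein that activates some Treg genes and represses others, mostly together with partner factors. Ikaros family proteins bind DNA through zinc fingers with a GGGAA core, pair with each other through a C-terminal zinc finger domain, and recruit repressor complexes such as NuRD. Ikaros is made throughout the lymphocyte lineages, Aiolos in B cells and in activated or differentiated T cells, and Helios and Eos mainly in Treg, where Eos acts as a Foxp3 corepressor and Helios keeps the Treg state stable. Ikaros and Aiolos are also the proteins that thalidomide analogs direct to the ubiquitin ligase built on cereblon.

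In the mm10 coordinates of the count table, Foxp3 (ENSMUSG00000039521.13) lies at chrX:7573644-7595245 on the plus strand and Ikzf1 (ENSMUSG00000018654.17) at chr11:11685003-11772926 on the plus strand. Ikzf2 (ENSMUSG00000025997.13) lies at chr1:69531214-69687245, Ikzf3 (ENSMUSG00000018168.8) at chr11:98464902-98546031 and Ikzf4 (ENSMUSG00000002578.18) at chr10:128630843-128669358, all on the minus strand. RefSeq start-site windows of 300 bases (250 before the start and 50 after it, GRCm38.p6) were at hand for 2 of the 5 genes. They were searched on both strands for GGGAA, the core that Ikaros proteins bind, since the family is known for acting on its own genes and on Foxp3. The windows with a match are shown because they are the stretches where the family's recognition letters fall beside a start site of a gene followed here. The first is chrX:7579426-7579725 and the second chr11:11689927-11690226, both on the plus strand, and capitals mark the match as read on the plus strand (TTCCC).
Foxp3 start 1: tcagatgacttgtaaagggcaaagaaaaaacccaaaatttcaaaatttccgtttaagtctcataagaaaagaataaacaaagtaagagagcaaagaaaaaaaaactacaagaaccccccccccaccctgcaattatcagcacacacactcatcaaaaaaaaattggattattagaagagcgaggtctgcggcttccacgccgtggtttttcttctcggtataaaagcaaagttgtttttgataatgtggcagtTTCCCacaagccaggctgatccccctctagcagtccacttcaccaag
Ikzf1 start 2: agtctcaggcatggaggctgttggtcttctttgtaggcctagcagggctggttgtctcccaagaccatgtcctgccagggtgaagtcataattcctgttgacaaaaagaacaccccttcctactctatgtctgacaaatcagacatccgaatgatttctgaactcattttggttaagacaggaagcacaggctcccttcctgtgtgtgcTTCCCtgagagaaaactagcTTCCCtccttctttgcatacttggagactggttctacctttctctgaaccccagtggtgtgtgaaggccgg
The Foxp3 window held 1 match, beginning 3 bases after the start, and the Ikzf1 window held 2, at 41 and 21 bases before it (offsets -41 and -21). Of all 32851 windows of this length, 62.7% held at least 1 GGGAA, so a match in a window is the usual case. The other windows of the same genes, chrX:7580233-7580532 and chr11:11685675-11685974, held none.

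Total counts ran from 12197980 to 28823493 per library, and each of the 5 genes had at least 1204 counts in every Treg library. Over all genes, replicates of a source differed by more than counting error (chi-square per degree of freedom 20.1 or more). Levels are in CPM, the usual unit of counts scaled to library size (here the library total times its TMM factor). They come from 3' tags and are compared between samples, not between genes. Among the 30 Treg libraries, 26 were closest to another library of their own source. In 5 sources 1 library stood apart from the other two. The chi-square per degree of freedom was 343 and 362.5 for lung Treg replicate 1 (104 between the other two), 245 and 286 for pancreas Treg replicate 6 (32.0), 203 and 215 for lymph node Treg replicate 6 (43.55), 183 and 209 for kidney Treg replicate 1 (31.7) and 140.7 for Peyer's patch Treg replicate 1 in both pairs (25.5). Kidney Treg replicate 1 also differed in its markers (kidney tubule markers at 0.148% of its counts, against 0.00267% and 0.00410% in the other two), and lung Treg replicate 1 was closest to a spleen library. In 7 Treg and 3 Tconv libraries Xist, the RNA of the inactive X chromosome, exceeded 10 CPM and 4 Y-linked genes (Ddx3y, Uty, Kdm5d and Eif2s3y) summed to at most 0.428 CPM. In the other 30, Xist stayed at or below 0.467 CPM and the Y-linked genes reached at least 179 CPM. The libraries with Xist were all 4 of lymph node, lung Treg replicates 5 and 6, pancreas Treg replicates 1 and 5, and the Tconv of lung and pancreas, so the Xist split and the lymph node cannot be told apart. Fits of only the Treg libraries without Xist had no lymph node library, replicate 1 alone from lung and replicate 6 alone from pancreas. T cell identity genes took 0.309% to 0.497% of the counts in Treg and 0.302% to 0.495% in Tconv.

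**Figure D1:**
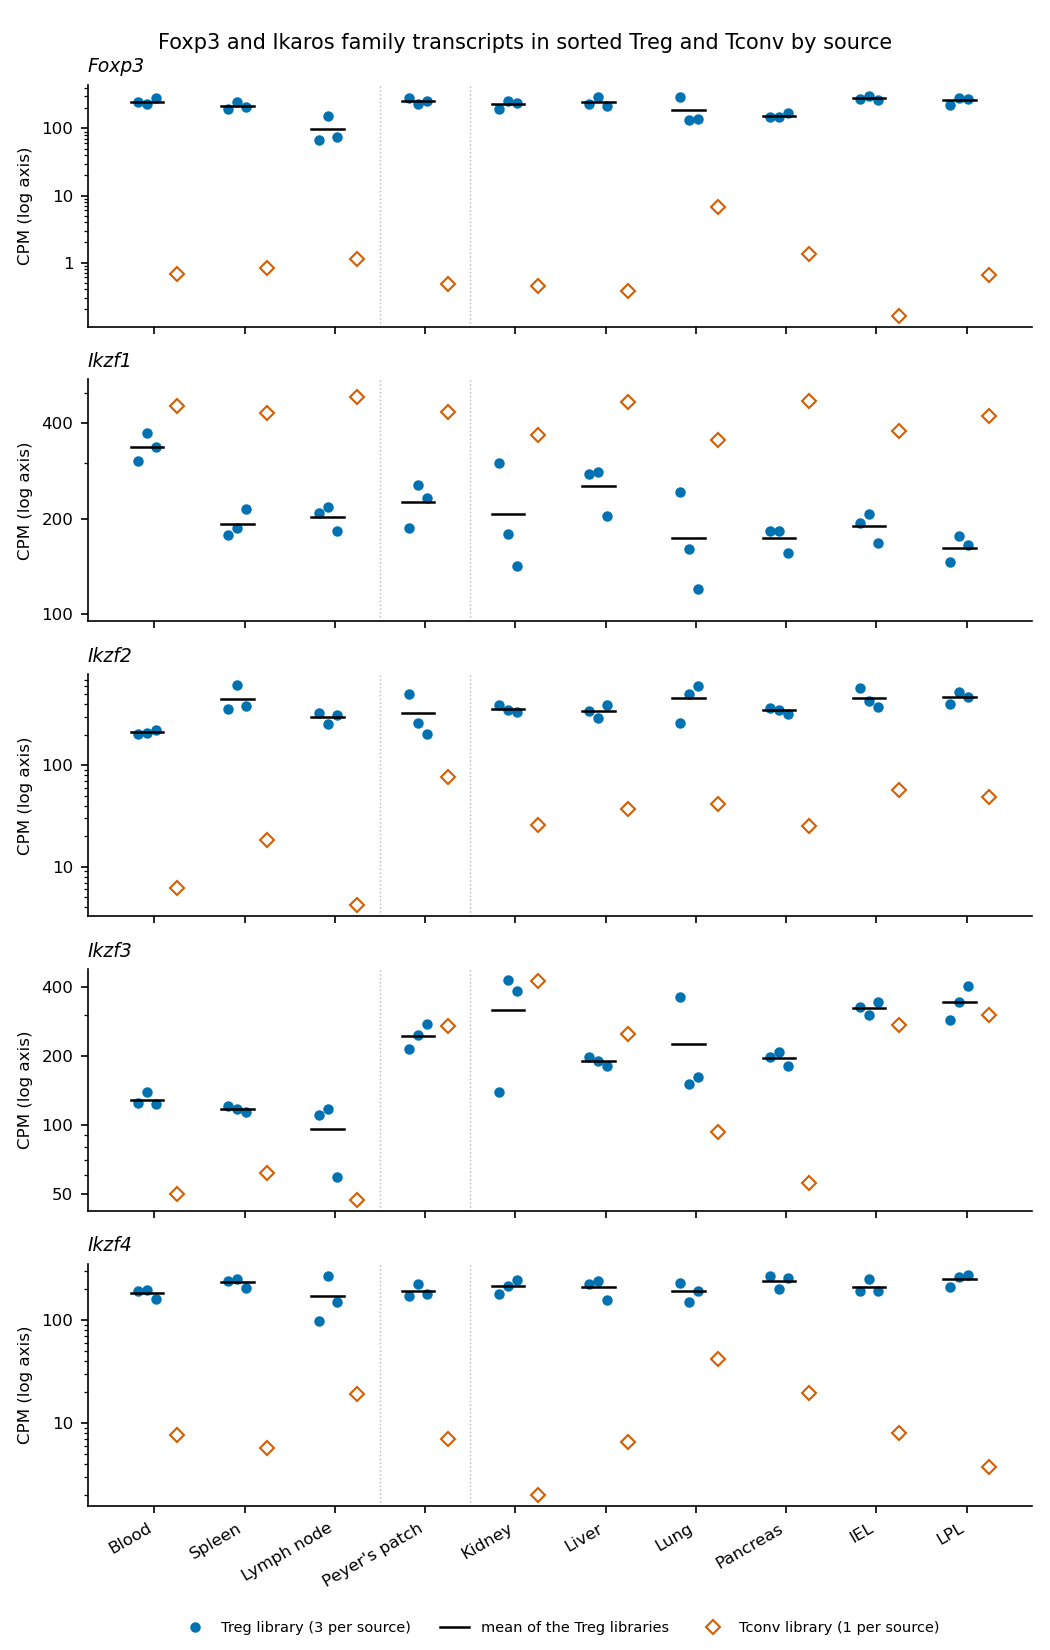
CPM (log axis) of each of the 5 genes in the 3 Treg libraries (blue points, black line at their mean) and the Tconv library (orange diamonds) of each source. Foxp3, Ikzf2 and Ikzf4 are higher in every Treg than in every Tconv library, Ikzf1 is highest in Tconv of every source, and the order of Treg and Tconv for Ikzf3 changes from source to source.

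Sorted on a Foxp3 reporter, Treg differed from Tconv in 4 of the 5 genes, against 17.2% of all 14983 genes tested (9.88% higher and 7.28% lower). Foxp3 itself checks the sort and is not a finding. It was at 68.3, 233 and 309.8 CPM (lowest, median, highest) in Treg and at 0.162, 0.668 and 6.76 CPM in Tconv. Ranges of Treg and Tconv that do not meet, as here and for Ikzf2 and Ikzf4, were seen in 0.133% of the genes tested. The highest Tconv value was that of lung, at 3.58% of the mean of lung Treg, and the other 9 Tconv libraries were at 1.33 CPM or less.

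Eos, the Foxp3 corepressor encoded by Ikzf4, was at 98.5, 207 and 273.6 CPM in Treg and at 2.01, 7.30 and 42.4 CPM in Tconv, with no overlap and a log2 fold change of 4.33 ± 0.32 (SE, edgeR adjusted p = 4.07e-12). The Tconv libraries with the most Ikzf4 were lung (42.4 CPM), pancreas (19.8 CPM) and lymph node (19.4 CPM), and the other 7 lay between 2.01 and 8.01 CPM. Those 3 are the Tconv libraries with Xist, and they also had the most Foxp3 of the 10 (1.11 to 6.76 CPM against 0.162 to 0.830 CPM). The part of the Xist split in these values was not tested.

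Helios, encoded by Ikzf2, was at 203, 357 and 615.9 CPM in Treg and at 4.18, 31.6 and 77.6 CPM in Tconv. These ranges did not overlap either, and the log2 fold change was 3.63 ± 0.27 (SE, edgeR adjusted p = 4.28e-12). The gap was not the same in each source. Tconv held 1.40% of the Treg level in lymph node, 2.95% in blood and 4.05% in spleen, but 7.11% to 12.5% in the organs and gut wall and 23.9% in Peyer's patch.

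Ikaros was the one member lower in Treg. Ikzf1 was at 119.8, 191 and 372 CPM in Treg and at 354, 433 and 482 CPM in Tconv, and the log2 fold change was -1.04 ± 0.10 (SE, edgeR adjusted p = 6.03e-10). The ranges overlapped only through blood Treg replicate 4 (372 CPM). Within each of the 10 sources the Tconv library was above all 3 Treg libraries. The gap was smallest in blood (134% of the Treg mean) and largest in pancreas (269%). The share of all genes with 1 such order in every source is not given here.

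Ikzf3 did not pass the test between Treg and Tconv (log2 fold change 0.49 ± 0.19, edgeR adjusted p = 0.0637), and its order depended on the source. In blood, spleen, lymph node, lung and pancreas the Tconv library held 28.5% to 52.2% of the Treg mean and lay below all 3 Treg libraries. In IEL it was below them by less, at 84.3%, and in LPL, Peyer's patch and kidney it fell within the Treg range. In liver, Tconv at 248 CPM were above all 3 Treg libraries (180 to 196.5 CPM). Single Tconv libraries carry no error of their own, so no source was tested alone. The call between Treg and Tconv depended on the setting: it passed without kidney Treg replicate 1 (0.55, adjusted p = 0.0168), without the Tconv library of kidney (0.63, adjusted p = 0.0201), liver (0.61, adjusted p = 0.0235) or Peyer's patch (0.57, adjusted p = 0.0393), and with DESeq2 (0.475, adjusted p = 0.0378).

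**Figure D2:**
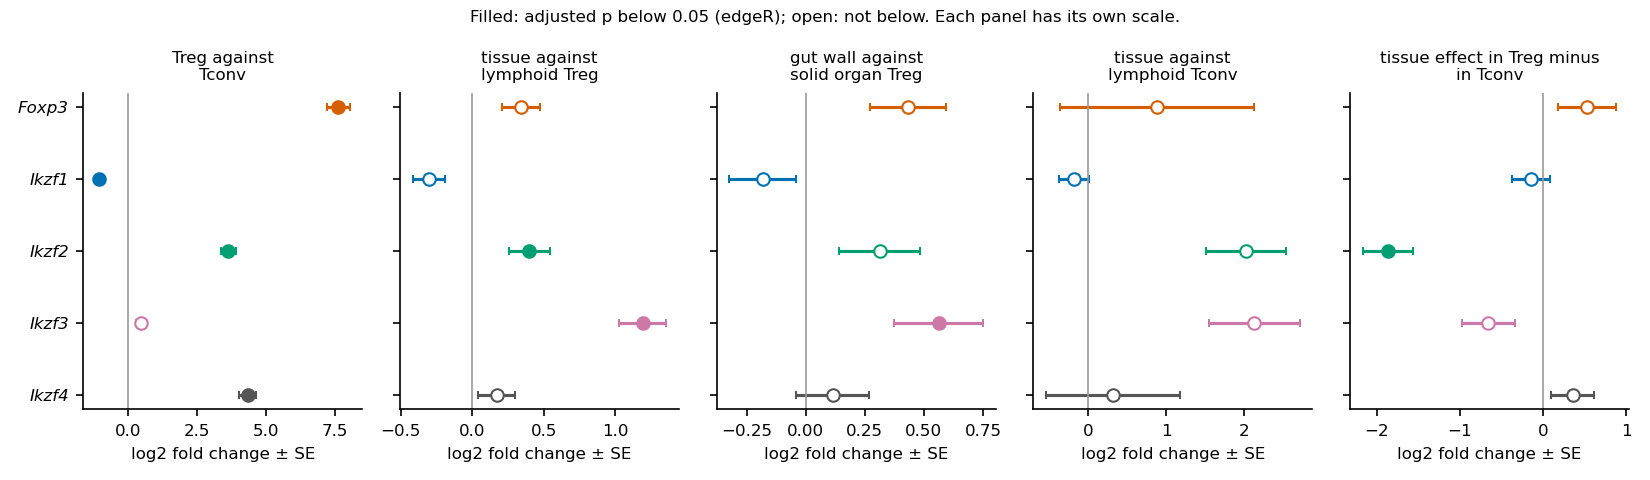
Log2 fold change ± SE of each gene in 5 comparisons, from edgeR; filled points passed the test at an adjusted p below 0.05 and open points did not, and each panel has its own scale. Ikzf3 has the largest difference of the 5 genes between tissue and lymphoid Treg (1.19), and Ikzf2 is the one gene that passed for the difference between the tissue effects in Treg and Tconv (-1.87), in a fit whose spread comes from Treg replicates.

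Aiolos transcripts were higher in tissue Treg. Ikzf3 was at 59.0, 117 and 139 CPM in the 9 lymphoid Treg libraries and at 139.3, 247 and 428 CPM in the 18 tissue Treg libraries. The ranges just missed each other, as for 0.0838% of genes, with blood Treg replicate 4 (139.0 CPM) below kidney Treg replicate 1 (139.3 CPM). The log2 fold change was 1.19 ± 0.17 (SE, edgeR adjusted p = 1.44e-05), and 2 of the 5 members (Ikzf3 and Ikzf2, both higher) passed in this comparison, against 21.8% of the 17909 genes tested (11.9% higher). Ikzf3 passed against each lymphoid source alone, at 1.15 against spleen, 1.43 against lymph node and 1.002 against blood, and in the libraries without Xist (1.16, adjusted p = 4.96e-05). With counts summed so that each source was 1 sample, the value was 1.21 and did not pass (edgeR adjusted p = 0.184). No gene at all passed in that fit.

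By source, Ikzf3 was at 344.6 ± 59.1 CPM (SD, n = 3) in LPL, 323 ± 21.2 in IEL, 317 ± 155 in kidney, 245 ± 30.9 in Peyer's patch, 225 ± 119 in lung, 195 ± 14.1 in pancreas, 189 ± 8.36 in liver, 129 ± 8.98 in blood, 117 ± 3.79 in spleen and 95.4 ± 31.8 in lymph node. No 2 neighbours in this order differed by the test, whereas 11 of the 45 pairs of sources did. In each of these 11 a lymphoid source was the lower one, and the largest was LPL over lymph node (1.85 ± 0.32, adjusted p = 0.000263). Blood was exceeded by kidney, IEL and LPL (pairs in which 8.86%, 13.4% and 17.8% of all genes passed), spleen by the same 3 (5.75%, 7.86% and 12.5%), and lymph node by Peyer's patch, kidney, lung, IEL and LPL (3.21%, 11.5%, 3.03%, 17.8% and 21.3%). The spread in kidney and lung came from 1 library each. In kidney, replicates 3 and 5 were at 428 and 383 CPM and replicate 1 at 139.3 CPM, while in lung, replicate 1 was at 363 CPM and replicates 5 and 6 at 150.3 and 162 CPM.

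Set against the lymphoid mean, Ikzf3 passed in LPL (1.61 ± 0.24), IEL (1.52 ± 0.24), kidney (1.49 ± 0.24), Peyer's patch (1.13 ± 0.24), lung (0.99 ± 0.24) and pancreas (0.80 ± 0.25). The share of all genes that passed was 27.1%, 21.2%, 16.4%, 3.57%, 11.5% and 9.95% in the same order. Liver Treg did not pass (0.75 ± 0.25, edgeR adjusted p = 0.165), in a comparison that called 1.12% of genes. The lung call rested on replicate 1, without which the difference was 0.45 (adjusted p = 0.241). The pancreas call was lost when any of 10 single libraries was left out, with values of 0.72 to 0.88 over all 30. In the libraries without Xist the pancreas value was 0.55, from replicate 6 alone against blood and spleen. Peyer's patch lost its call without its replicate 3 (1.04, edgeR adjusted p = 0.0548). In the pancreas, 8 acinar cell markers took 1.63% to 7.60% of the counts of the 3 Treg libraries and 0.599% of those of the Tconv library, against at most 0.00966% in any other library. All 8 were higher in pancreas than in lymphoid Treg, and their part in the Ikzf3 value was not tested. Gut wall Treg exceeded solid organ Treg (0.56 ± 0.19, adjusted p = 0.0315), where 1 of the 5 members and 23.6% of genes passed, but that call was lost when any of 8 single libraries was left out (values over all 30 0.46 to 0.69) and in the libraries without Xist (0.43, adjusted p = 0.105).

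Aiolos is also made in cells of the B lineage, and markers of these were read beside it. The 10 B cell markers summed to 0.00336% to 0.0301% of counts in lymphoid Treg and to 0.00200% to 0.00831% in tissue Treg, and 7 of the 10 were lower in tissue. The 6 plasma cell markers summed to 0.0158% to 0.0424% in lymphoid, 0.0220% to 0.0594% in solid organ and 0.0654% to 0.109% in gut wall Treg. Of these, Sdc1 (5.31 ± 0.62), Prdm1 (2.06 ± 0.27) and Xbp1 (0.52 ± 0.13) were higher in tissue than in lymphoid Treg. Activated T cells also make Prdm1. Jchain did not pass (2.51 ± 0.96, edgeR adjusted p = 0.0651), and the tests of Mzb1 and Tnfrsf17 gave no standard error. In all lymphoid Treg libraries 1 marker was at 0. Epithelial markers, which also touch every gut wall comparison, took 0.00833% to 0.219% of counts in gut wall and 0.00106% to 0.0211% in solid organ Treg. The part of these marker lists in the Ikzf3 values was not tested. In bulk samples, more cells with a transcript and more of it per cell cannot be told apart.

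Tconv were low in Ikzf3 in the lymphoid sources as well. Lymphoid Tconv were at 46.8 (lymph node), 49.9 (blood) and 61.2 CPM (spleen), and tissue Tconv at 425.5 (kidney), 300.5 (LPL), 272 (IEL), 248 (liver), 92.7 (lung) and 55.6 CPM (pancreas). Only pancreas fell among the lymphoid values. Lung and pancreas, the lowest of the tissue Tconv, are also the tissue Tconv libraries with Xist. Ikzf3 was at 46.8 to 92.7 CPM in Tconv with Xist and at 49.9 to 425.5 CPM in Tconv without. With 1 Tconv library per source, the source and the Xist split cannot be told apart here. Plasma cell markers took 0.00907% to 0.0128% of counts in lymphoid and 0.0178% to 0.243% in tissue Tconv, the most in LPL, and natural killer cell markers 0.00211% to 0.00345% and 0.00585% to 0.0288%. Neither pair of ranges overlapped, and the part of these markers in the Tconv values of Ikzf3, and of Ikzf2 below, was not tested. For Ikzf3 the log2 fold change of 2.13 ± 0.58 did not pass in edgeR (adjusted p = 0.165), in a test of 6 against 3 libraries where 0 of 14453 genes passed and 2119 had an unadjusted p below 0.05. DESeq2, which called 1085 genes there, called Ikzf3 (2.13, adjusted p = 0.00236), and edgeR did so without pancreas Tconv replicate 5 (2.33, adjusted p = 0.0494). Across the 10 sources the Tconv level and the Treg mean had a Pearson r of 0.84 (Spearman rho 0.88), a description over 10 points that share their source and their sort. The difference between the 2 tissue effects was -0.66 ± 0.32 (edgeR adjusted p = 0.390). This fit takes its spread from Treg replicates alone. In it, the difference passed with kidney Treg replicate 1 and lung Treg replicate 1 both left out (-0.69, edgeR adjusted p = 0.0401). The difference also passed in the libraries without Xist, with all of lung, pancreas and lymph node left out (-1.23, edgeR adjusted p = 0.0428).

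**Figure D3:**
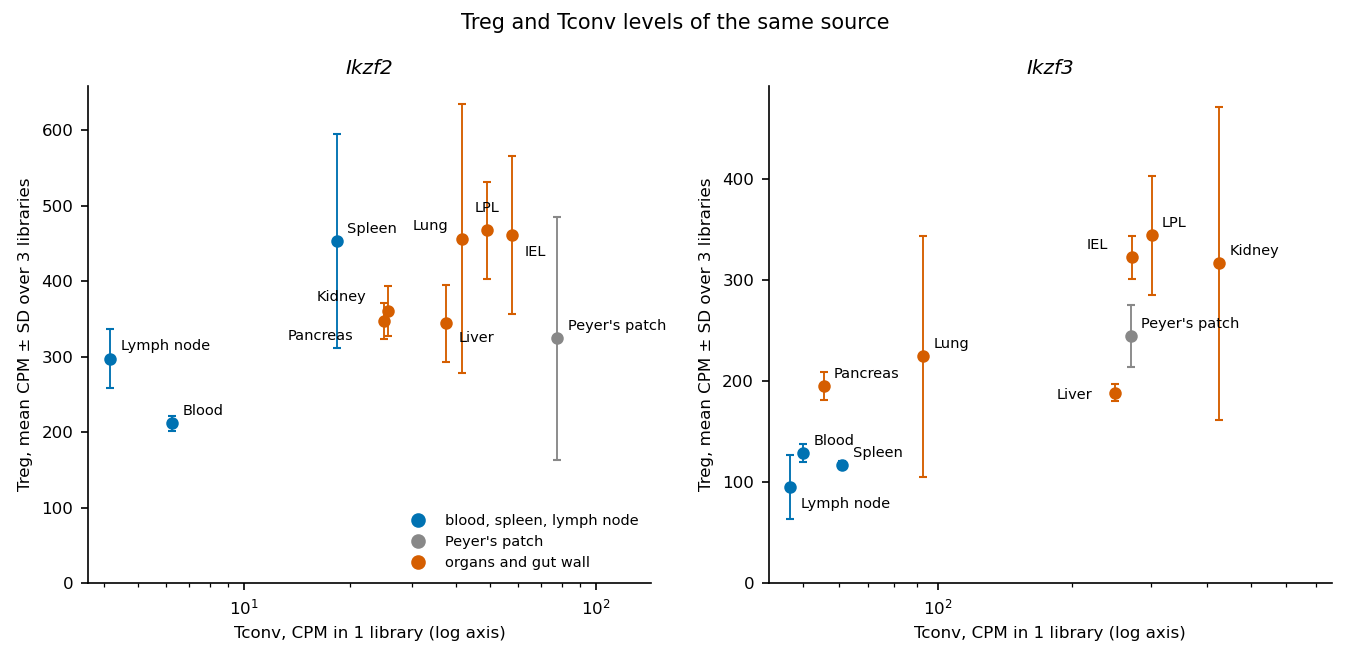
Mean Treg CPM ± SD (3 libraries) against Tconv CPM (1 library, log axis) of the same source for Ikzf2 and Ikzf3. Ikzf2 in Tconv runs from 4.18 to 77.6 CPM while Treg means stay between 212 and 467 CPM, and Ikzf3 is low in both cell types of blood, spleen and lymph node.

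Helios transcripts in Tconv were lowest in the lymphoid sources. Ikzf2 was at 4.18 (lymph node), 6.25 (blood) and 18.4 CPM (spleen) in lymphoid Tconv and at 24.99 (pancreas), 25.6 (kidney), 37.5 (liver), 41.8 (lung), 49.1 (LPL) and 57.7 CPM (IEL) in tissue Tconv, and Peyer's patch Tconv had the most (77.6 CPM). The lymphoid and tissue values did not overlap, as was the case for 7.54% of the genes tested and for the plasma cell and natural killer cell marker sums given above. The log2 fold change of 2.02 ± 0.51 did not pass in edgeR (adjusted p = 0.145) and passed in DESeq2 (2.02, adjusted p = 0.00170). In Treg the tissue effect was 0.40 ± 0.14. The difference between both effects was -1.87 ± 0.30 (edgeR adjusted p = 0.000979) in a fit with 1 Tconv library per source, where Treg replicates alone gave the spread and 1.75% of the 14983 genes passed. With Treg counts summed per source and the spread taken between sources, it was -1.83 ± 0.33 and did not pass (edgeR adjusted p = 0.170). In that fit 0 of 14134 genes passed and 1127 had an unadjusted p below 0.05. The call for Ikzf2, the 1 member among the 5, thus rests on single Tconv libraries being taken to vary like Treg replicates. Under that assumption it passed in all 40 fits that left out 1 library. The difference was -1.42 when lymph node Tconv replicate 8 was left out (edgeR adjusted p = 0.0279). It also passed in the libraries without Xist, with all of lung, pancreas and lymph node left out (-1.52, edgeR adjusted p = 0.0156). Foxp3 in tissue Tconv was at 0.162 to 6.76 CPM and in lymphoid Tconv at 0.671 to 1.11 CPM. Without lung, the highest Foxp3 value in tissue Tconv was 1.33 CPM.

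Within Treg, Ikzf2 was at 203, 311 and 615.9 CPM in the lymphoid and at 259, 386 and 606 CPM in the tissue libraries, and the ranges overlapped widely. The difference between tissue and lymphoid Treg was at the edge of the test (edgeR adjusted p = 0.0467). It lost the call in 23 of the 30 fits that left out 1 library (values 0.34 to 0.50, adjusted p up to 0.108) and in the libraries without Xist (0.22, adjusted p = 0.378), and it turned to -0.16 against spleen alone. Blood had the lowest Ikzf2 of all sources (203, 210.0 and 222 CPM) and spleen 362, 381.7 and 615.9 CPM. In the order of sources, LPL (467 ± 64.6 CPM, SD, n = 3), IEL (461 ± 104), lung (456 ± 178.5), spleen (453 ± 141), kidney (361 ± 32.5), pancreas (347 ± 23.6), liver (344 ± 51.3), Peyer's patch (324.5 ± 161), lymph node (298 ± 39.2) and blood (212 ± 9.63), no neighbours differed by the test. Of the 45 pairs 3 passed, lung, IEL and LPL over blood (1.10 to 1.14; 8.07% of all genes passed between lung and blood). Against the lymphoid mean LPL passed (0.62 ± 0.22, edgeR adjusted p = 0.0406), a call lost in 19 of the 30 fits that left out 1 library.

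Gut wall Treg had less Nrp1 than organ Treg, and Ikzf2 did not pass. Nrp1 (neuropilin 1) is a surface protein often read beside Helios in Treg. Gut wall against solid organ Treg, Nrp1 fell by 2.78 on the log2 scale (log2 fold change -2.78 ± 0.25) and Il1rl1, the receptor of IL-33, by 2.19 (-2.19 ± 0.35), while Maf (1.31 ± 0.18), Il10, Tbx21 and Ahr rose, and Gata3 did not pass (-0.28 ± 0.17). Nrp1 was at 60.2 ± 16.0 CPM (SD, n = 3) in LPL and 74.3 ± 9.66 in IEL, against 340 ± 167 to 554 ± 38.0 in the 4 organs. Ikzf2 was at 378 to 578 CPM in gut wall and 259 to 606 CPM in organ Treg, a difference of 0.31 ± 0.17 (edgeR adjusted p = 0.195). It passed, as higher in gut wall, with a term for Xist (0.53, adjusted p = 0.0433) and in the libraries without Xist (0.55, adjusted p = 0.0296). Of 10 myeloid markers 6 were lower in gut wall than in organ Treg, among them Lyz2 (-8.38 ± 1.35), and the list took 0.00556% to 0.00904% against 0.0139% to 0.185% of counts, with 2 markers at 0 in all gut wall libraries. Of 6 endothelial markers Pecam1 was lower (-1.03 ± 0.31) and Egfl7 did not pass. The other 4 (Cdh5, Kdr, Emcn and Tie1) were at 0 in the gut wall. Their tests gave no standard error, so they do not speak to a difference, and the same holds for the myeloid marker S100a9. The endothelial list took 0.00657% to 0.00859% of counts in gut wall and 0.00511% to 0.0306% in organ Treg. Their part in these values was not tested, and the counts do not show which cells held each transcript.

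**Figure D4:**
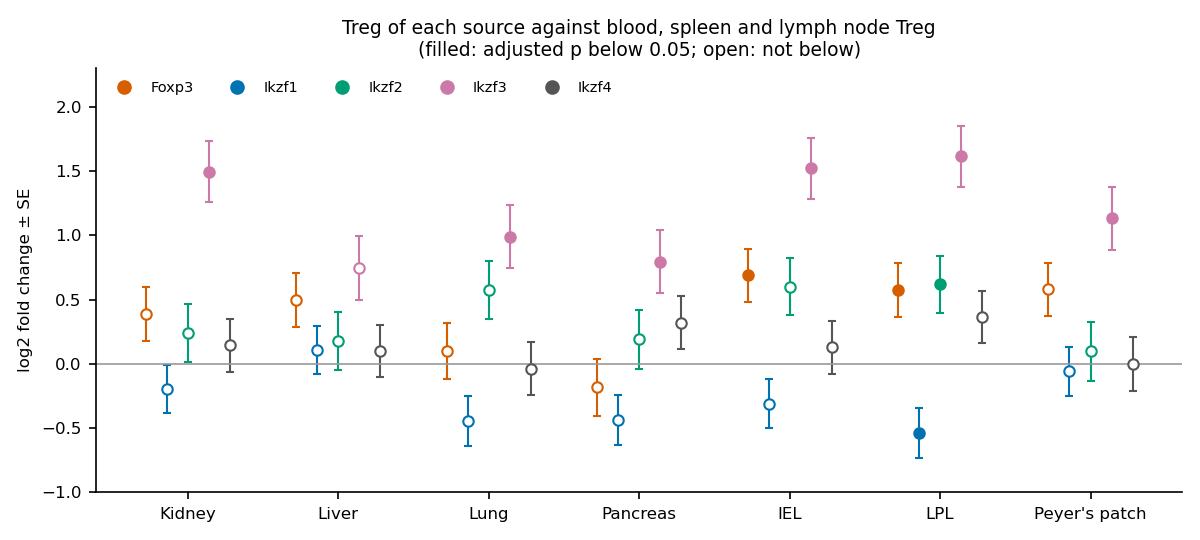
Log2 fold change ± SE of each gene in Treg of 7 sources against the mean of blood, spleen and lymph node Treg, from edgeR; filled points passed the test. Ikzf3 is above 0.7 in all 7 and filled in 6, and the other 4 genes stay between -0.54 and 0.69.

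Foxp3 itself varied among Treg of different sources (edgeR adjusted p = 0.00340 for any difference, where 34.5% of genes passed, with Ikzf1, Ikzf2 and Ikzf3 passing as well and Ikzf4 not). It was highest in IEL (282 ± 24.5 CPM, SD, n = 3), LPL (261 ± 34.2), Peyer's patch (260.1 ± 26.8), blood (251.4 ± 26.8), liver (247 ± 41.3), kidney (229.5 ± 29.8) and spleen (218.5 ± 27.0), then lung (189 ± 90.3), pancreas (154 ± 13.3) and lymph node (99.0 ± 48.6). No neighbours in this order differed, and of the 45 pairs 7 passed, all with lymph node as the lower source, by 1.13 (spleen) to 1.51 (IEL). In the pairs not yet given a share, 3.19% of all genes passed against blood, 2.04% against spleen and 2.33% against liver. Lymph node Treg were at 68.3 (replicate 10), 73.5 (replicate 7) and 155 CPM (replicate 6).

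The level of Foxp3 in Treg went with Xist. In the 7 Treg libraries with Xist it was at 68.3, 138 and 155 CPM, and in the 23 without at 169.7, 249 and 309.8 CPM, with no overlap. Of the 17909 genes tested, 11 (0.0614%) split the Treg libraries in this way, 5 on the Y chromosome, 2 on the X (Foxp3 and Xist) and 4 on autosomes (Sfpq, Zbtb8a, Npas1 and Cdk12), and these were picked out after their values were seen. Npas1 was at 1.203 CPM on average with Xist and 74.1 CPM without. Within lung, replicate 1 without Xist was at 293 CPM and replicates 5 and 6 with it at 136 and 138 CPM. Within pancreas, replicate 6 without Xist was at 169.7 CPM and replicates 1 and 5 at 145.6 and 148 CPM. With the source held fixed, the term for Xist was -0.67 ± 0.24 for Foxp3 and did not pass (edgeR adjusted p = 0.0952), where 8.64% of genes passed. It was estimated from lung and pancreas alone, the 2 sources with both kinds of library. There, the libraries without Xist (lung Treg replicate 1 and pancreas Treg replicate 6) are those that stood apart from their replicates over all genes. Xist cannot be told apart from whatever else sets these libraries off.

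**Figure D5:**
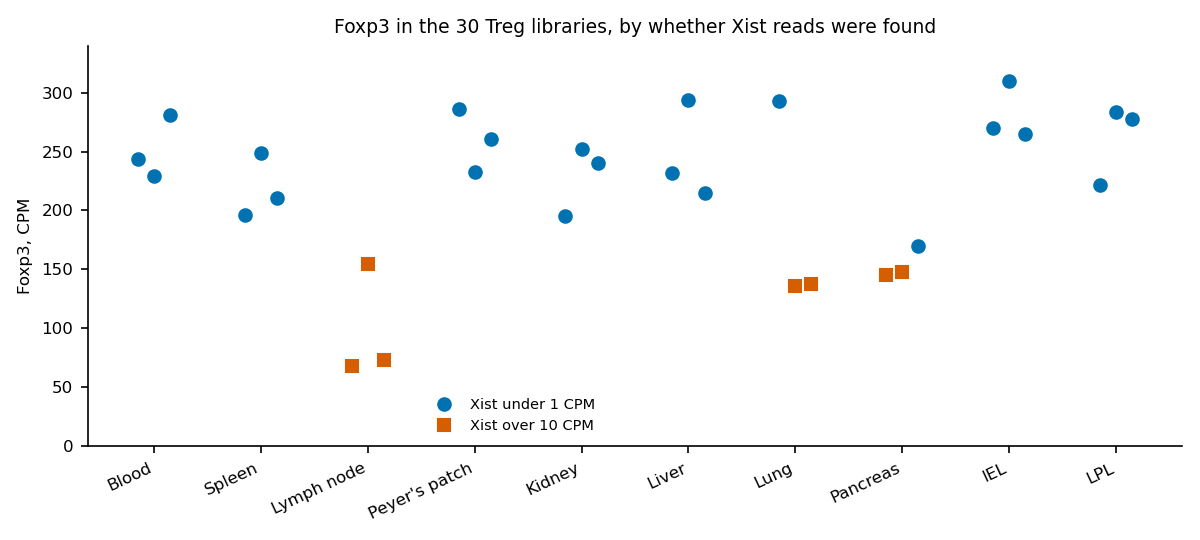
Foxp3 CPM in the 30 Treg libraries by source, with libraries over 10 CPM of Xist as orange squares and the others as blue circles. All 7 squares lie at or below 155 CPM and all 23 circles at or above 169.7 CPM.

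Tests of Foxp3 that include lymph node, lung or pancreas mix libraries with and without Xist. For lymph node the source and the split cannot be told apart. Tissue against lymphoid Treg differed by 0.34 ± 0.13 (edgeR adjusted p = 0.0693). In the libraries without Xist, where only blood and spleen remain as the reference, it differed by 0.05 (edgeR adjusted p = 0.884). It differed by 1.17 against lymph node alone (edgeR adjusted p = 0.00115) and by -0.18 against blood alone. It passed without lymph node Treg replicate 6 (0.51, adjusted p = 0.00254) or lung Treg replicate 5 (0.38, adjusted p = 0.0432). Gut wall against solid organ Treg gave 0.43 ± 0.16 (adjusted p = 0.0509) and passed when any of 5 single libraries was left out, with 0.55 without lung Treg replicate 1 (adjusted p = 0.00443). Foxp3 passed in IEL (0.69 ± 0.21) and LPL (0.58 ± 0.21) against the lymphoid mean, and in the libraries without Xist these were 0.27 (adjusted p = 0.172) and 0.17 (adjusted p = 0.387). The IEL call was also lost without IEL Treg replicate 1 (0.72, adjusted p = 0.0520) or replicate 2 (0.61, adjusted p = 0.107), and the LPL call in 18 of the 30 fits that left out 1 library.

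Some reads at Foxp3 could belong to overlapping genes. Flicr, a long noncoding RNA that shares exons and strand with Foxp3, was at 9.73 to 144 CPM in Treg, and Ppp1r3f, on the other strand, reached 10.97 CPM. Flicr was at 144 CPM in liver Treg replicate 4, where Foxp3 was the lowest of the 3 liver libraries (215 CPM). In lung Treg it was at 46.7 and 56.8 CPM in the libraries with Xist and 28.1 CPM in the other. With Flicr counted as Foxp3, IEL still passed (0.53, adjusted p = 0.0174) and LPL did not (0.37, adjusted p = 0.0865).

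Ikaros was highest in blood Treg. Ikzf1 was at 337 ± 34.4 CPM (SD, n = 3) in blood, 254 ± 43.5 in liver, 225 ± 34.4 in Peyer's patch, 207 ± 82.0 in kidney, 203 ± 18.04 in lymph node, 193 ± 19.1 in spleen, 190 ± 19.8 in IEL, 174.5 ± 63.1 in lung, 174.1 ± 15.3 in pancreas and 162 ± 14.96 in LPL. All 3 blood libraries (303.5 to 372 CPM) were above every other Treg library, and the share of all genes that set blood apart in this way is not given here. The nearest was kidney Treg replicate 1 at 299 CPM, while the other kidney libraries were at 179 and 142 CPM. The share of counts on Gm26917, a noncoding RNA gene, moved with these levels in part. It was 2.20% to 2.49% in blood and 2.12% to 4.67% in liver Treg, the sources with the most Ikzf1, and 0.176% to 0.434% in spleen and lymph node Treg. Kidney Treg replicate 1 was at 2.23% (0.823% and 0.862% in the other two), lung Treg replicate 1 at 1.57% (0.272% and 0.305%), where Ikzf1 was at 243.6 CPM (119.8 and 160 CPM in the other two), whereas Peyer's patch Treg replicate 1, at 3.56% (0.6695% and 0.869%), had less Ikzf1 than the other two (187.6 against 232.5 and 255 CPM). The part of this share in the Ikzf1 values was not tested. No neighbours differed by the test, and of the 45 pairs 4 passed, blood over lung, pancreas, IEL and LPL (log2 fold changes of -0.83 to -1.05 from blood; 7.43% of all genes passed for pancreas).

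Tissue Treg had less Ikzf1 on average than lymphoid Treg, short of the threshold (-0.30 ± 0.11, edgeR adjusted p = 0.0578). It passed without kidney Treg replicate 1 (-0.38, adjusted p = 0.00908), without lung Treg replicate 1 (-0.35, adjusted p = 0.0142), Peyer's patch Treg replicate 1 (-0.32, adjusted p = 0.0470) or liver Treg replicate 3 (-0.34, adjusted p = 0.0476), with DESeq2 (-0.31, adjusted p = 0.0360) and in the libraries without Xist (-0.37, adjusted p = 0.0468). It was -0.82 against blood alone and -0.003 against spleen alone. Among single sources LPL passed (-0.54 ± 0.19), and lost the call in 8 of 30 fits with 1 library left out. In Tconv, Ikzf1 lay between 354 and 482 CPM in all 10 sources, and tissue did not differ from lymphoid Tconv by the test (-0.17 ± 0.19, adjusted p = 0.770).

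For Eos edgeR called no difference among Treg sources over all 30 libraries. Ikzf4 source means ran from 171.5 ± 85.0 CPM (SD, n = 3) in lymph node over 183 ± 19.3 in blood, 189.5 ± 40.6 in lung, 192 ± 28.9 in Peyer's patch, 207 ± 43.8 in liver, 211 ± 34.1 in IEL, 214 ± 33.1 in kidney, 232 ± 25.99 in spleen and 241 ± 35.6 in pancreas to 249 ± 33.4 in LPL. No pair of the 45 passed, and neither did the test for any difference (edgeR adjusted p = 0.583). The 3 lymph node libraries, at 98.5, 151 and 264.8 CPM, spanned nearly the whole range of the 30. Tissue against lymphoid Treg gave 0.17 ± 0.13 (adjusted p = 0.391), with a change of sign against spleen alone (-0.08), and passed without lymph node Treg replicate 6 (0.33, adjusted p = 0.0330) and with limma voom (0.283, adjusted p = 0.0348).

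Across the 10 source means of Treg, on the log2 scale, the pair with the strongest relation was Ikzf1 and Ikzf2, which ran opposite to each other (Pearson r = -0.84, Spearman rho = -0.82). Foxp3 and Ikzf3 had an r of 0.64, Ikzf2 and Ikzf4 of 0.59, and the other 7 pairs lay between -0.46 and 0.53. The points share their libraries and scaling. Within sources, over the deviations of the 30 libraries from their source mean, Ikzf1 and Ikzf2 had an r of -0.38, and Foxp3 had an r of 0.71 with Ikzf4 and 0.59 with Ikzf3. Other pairs had the opposite sign there. Ikzf2 had an r of -0.33 with Ikzf4, -0.46 with Ikzf3 (0.51 over source means) and -0.36 with Foxp3 (0.17 over source means). Ikzf1 had an r of 0.15 with Ikzf4 (-0.46 over source means) and 0.01 with Ikzf3 (-0.41 over source means).

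The genes whose source means were most like each member were sought among 8315 genes with a mean of at least 10 CPM. For Foxp3 they were Ddx3y (r = 0.96), Uty, Yeats2 and Kdm5d (r = 0.94), and the least alike were Mnat1 (r = -0.93) and Xist (r = -0.93), so 3 of the 4 most alike were Y-linked. By Spearman's rho Kdm5d ranked 1352 of 8315. For Ikzf1 they were Prkd2 (r = 0.965), Lta4h, Kdm1b and Dgkd, and for Ikzf2 Zfp276 (r = 0.94), Cd200r1 (an inhibitory receptor), Zcchc18 and Tk1 (a thymidine kinase of dividing cells). For Ikzf3 they were Srxn1 (r = 0.96), Bmp2k, Cass4 and Fam234a, and for Ikzf4 Map4k2 (r = 0.95), Gps2, Ccdc9 and Mki67 (a marker of dividing cells, r = 0.92). The least alike were Htra2 and Casp4 for Ikzf1, Xxylt1 and Wdr46 for Ikzf2, Smim8 and Lsm6 for Ikzf3, and Tmem9b and Ociad1 for Ikzf4. All these are extremes picked from 8315 genes over 10 points, and serve as a description only. Ikzf4 was not called by edgeR among sources. Over the 30 Treg libraries its r was 0.69 with Map4k2, 0.42 with Gps2, 0.65 with Ccdc9 and 0.76 with Mki67.

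Close relatives of the members were read as well. Ikzf5, the fifth Ikaros gene, was at 2.01 ± 1.05 CPM in Treg and 1.92 ± 1.12 CPM in Tconv and passed neither there nor between tissue and lymphoid Treg. Of the forkhead relatives, Foxp4 was higher in Treg than in Tconv (0.55 ± 0.16, edgeR adjusted p = 0.0126) and Foxp1 was not called (-0.02 ± 0.21). Foxp2 was too low to be tested between Treg and Tconv. It was at 0 in all lymphoid Treg libraries and at most at a mean of 1.64 ± 1.83 CPM (SD, n = 3), in pancreas Treg, and edgeR called it higher than in lymphoid Treg in kidney, pancreas, IEL and LPL. Between tissue and lymphoid Treg as a whole, Ikzf5, Foxp1 and Foxp4 did not pass in edgeR, and none of them had an unadjusted p below 0.05. The test of Foxp2 gave no standard error there (log2 fold change 4.34), so it does not speak to a difference.

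The lists that follow were chosen with earlier results of these data known, and are given as counts beside the share of all genes that passed (17.2% for Treg against Tconv and 21.8% for tissue against lymphoid Treg) and the median of all genes, which was -0.004 for Treg against Tconv and 0.03 for tissue against lymphoid Treg. Genes that Foxp3 is known to activate were all higher in Treg than in Tconv (12 of 12, Ikzf4 among them, against 9.88% of all genes, median log2 fold change 3.10), led by Lrrc32 (7.90 ± 0.46), the anchor of latent TGF-beta, and including Capg (2.63 ± 0.21) and Tnfrsf18 (2.01 ± 0.16), the receptor GITR. Of 10 repressed targets 9 were lower, against 7.28% of all genes (median -1.50), among them Dapl1 (-3.76 ± 0.35), Pde3b (-3.50 ± 0.27) and Cd40lg (-2.21 ± 0.12), and Id3, named after its value was seen, did not pass (0.65 ± 0.26).

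The same targets parted in tissue Treg. Of the 12 activated targets (median 0.43) 6 were higher than in lymphoid Treg, against 11.9% of all genes, with Ctla4 (1.84 ± 0.25) and Itgae (1.35 ± 0.13) in front, 4 were lower (Il2ra -0.73 ± 0.11, Gpr83, Izumo1r and Nrp1), and Lrrc32 and Ikzf4 did not pass (Gpr83 and Lrrc32 are named here after their values were seen). Of the repressed targets (median -0.15) 2 were higher (Pde3b 1.63 ± 0.31 and Cd40lg 0.89 ± 0.16) and 4 lower (Id3, Dapl1, Tcf7 and Lef1). The tissue effect in Treg minus that in Tconv, with the spread between sources, was -4.18 ± 0.56 for Il2ra, -2.74 ± 1.37 for Itgae and -3.05 ± 0.61 for Entpd1. None of these 3 activated targets passed there (edgeR adjusted p = 0.170, 0.655 and 0.200), although all passed with the spread of Treg replicates alone.

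Among 16 partner factors of Foxp3, 7 were higher and 3 lower in Treg than in Tconv, and 9 were higher and 3 lower in tissue than in lymphoid Treg (medians 0.19 and 0.65), where 17.2% and 21.8% of all genes passed in either direction. In tissue Treg Gata3 (1.33 ± 0.15), Runx1 (0.90 ± 0.10), Runx3 (1.33 ± 0.19), Hif1a (1.05 ± 0.16) and Gata1 (-2.18 ± 0.22) had the smallest p. Of 20 regulators of the Foxp3 locus, 4 were higher in Treg than in Tconv (Stat5a 0.98 ± 0.17, Stat5b 0.66 ± 0.13, Foxo1 and Nr4a1) and 2 lower (Tet1 -1.36 ± 0.40 and Stub1), with a median of -0.04. Between tissue and lymphoid Treg 7 were higher, against 11.9% of all genes (median of the list 0.28), including all 3 Nr4a receptors (3.17 ± 0.35 for Nr4a1, 4.76 ± 0.61 for Nr4a2, 3.31 ± 0.52 for Nr4a3) and Uhrf1 (1.04 ± 0.23), and Bach2 was lower (-1.03 ± 0.25), while Foxp3 did not pass.

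The repressor complexes that Ikaros proteins recruit were read through their subunits. Of 17 NuRD, Sin3 and CtBP subunits, 1 passed between Treg and Tconv (Hdac2, -0.29 ± 0.07) and 5 between tissue and lymphoid Treg (medians 0.02 and 0.03), against 17.2% and 21.8% of all genes, with Hdac2 (-0.63 ± 0.08) and Hdac1 (-0.27 ± 0.10) lower and Gatad2a (0.55 ± 0.12), Mta3 (0.44 ± 0.11) and Mbd2 (0.35 ± 0.07) higher. Of the 5 subunits of the cereblon ligase, the receptor Crbn was higher in tissue than in lymphoid Treg (0.65 ± 0.15, edgeR adjusted p = 0.00217), at 287 ± 41.4 CPM in LPL and 121 ± 6.90 in blood (SD, n = 3). Ddb1 was also higher (0.22 ± 0.08) and Rbx1 lower (-0.57 ± 0.10), and Cul4a and Cul4b did not pass.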

How the data were processed

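The 40 libraries were 3' mRNA libraries made with the QuantSeq kit from 2000 sorted cells each, per the labels' protocols. The values are raw counts per gene, deposited as 1 table. Per the submitters' processing notes, which name FastQC, MultiQC, Trim Galore, STAR, featureCounts, DESeq2 and DESeq without versions, reads were set against mm10. Annotation release and strand setting are not given in the sources used here, so reads of overlapping genes cannot be separated.

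All tests ran in edgeR 4.0.16 under R 4.3.3 (filterByExpr, TMM, robust quasi-likelihood F test), on all genes passing the filter, with Benjamini-Hochberg adjustment and a threshold of 0.05. For Treg against Tconv, all 40 libraries entered, with the source as a factor. Contrasts among Treg came from a model of the 30 Treg libraries with a coefficient for each source, averaged without weights. Tissue and lymphoid Tconv were compared with 1 library per source, and the difference of the tissue effects in a model with a coefficient for each cell type in each source, whose spread comes from Treg replicates alone. These 4 fits and the one with sources as replicates were tested on simulated counts. Members were always named; from each list up to 5 genes with the smallest p were named, all relatives, cereblon ligase genes and those read beside Helios (1 gene of that list is not reported here), and per member the 4 most and 2 least correlated genes. Members and lists were chosen with earlier results of these data known. Alternatives were DESeq2 1.42.0, its size factors, no filter, limma 3.58.1 voom weights, other references, counts summed per source, a replicate block and leaving out each library. Xist (as a term, or only libraries with Xist at or under 10 CPM), kidney and lung Treg replicate 1 left out together, the difference of the tissue effects with sources as replicates (Treg counts summed per source, the source as a term, 9 sources), and Flicr added to Foxp3 were chosen after seeing the data. For the difference of the tissue effects, the libraries without Xist also exclude all of lung, pancreas and lymph node. The replicate block between Treg and Tconv kept only the 6 sources with libraries of the same number. Figures were drawn with matplotlib.

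Replicate numbers showed no common pairing over all sources. In 58 same-numbered pairs of Treg libraries from different sources, the median correlation of deviations from the source mean was -0.03. Of these pairs 9 were over 0.1. In 3 of the 6 sources with matching numbers, the Tconv library was closest to the Treg library of its own number. Pairing among only some sources was not tested.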

Additional observations from a re-analysis of the deposited data

Results flagged for a closer look

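The Ikzf2 tissue effect differed between Treg and Tconv by -1.87 on the log2 scale, which passed with the spread of Treg replicates alone (edgeR adjusted p = 0.000979) and did not with the spread between sources (-1.83, edgeR adjusted p = 0.170).

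In groups of 6, 9 or 10 libraries, 4 of the 15 sets of values checked had 1 library far from the rest. All 4 were in groups of 9 or 10. Chance gives about 1 in 20 for draws from 1 population, whereas these groups pool several sources. Lung Tconv replicate 5 was the highest of 10 Tconv libraries in Foxp3 (6.76 CPM, next 1.33 CPM) and in Ikzf4 (42.4 CPM, next 19.8 CPM). Spleen Treg replicate 3 was the highest of the 9 lymphoid Treg libraries in Ikzf2 (615.9 CPM, next 382 CPM). Lymph node Treg replicate 7 was the lowest of the 9 in Ikzf3 (59.0 CPM, next 110.1 CPM).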

How the results depend on the processing

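Each result was recomputed with 1 choice changed at a time, with these exceptions. In 1 alternative 2 libraries were left out together. The fit with sources as replicates also sums the Treg counts, adds a term for the source and leaves out Peyer's patch. The replicate block between Treg and Tconv kept only the 6 sources with libraries of the same number. For the difference of the tissue effects, the libraries without Xist also exclude all of lung, pancreas and lymph node. Of 2244 values for the 5 genes 2012 kept their direction and their side of the threshold. The calls of Foxp3, Ikzf1, Ikzf2 and Ikzf4 between Treg and Tconv held under every alternative run, and the Ikzf2 difference between tissue effects under all but sources as replicates with summed Treg counts (-1.828). The Ikzf3 call between tissue and lymphoid Treg held under all but summed counts. The values below did not hold, and the cause was not tested.

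Ikzf3 between Treg and Tconv became a call with DESeq2 (0.475), voom (0.453) and without kidney Treg 1 and lung Treg 1 (0.498). Between tissue and lymphoid Treg, DESeq2 called Foxp3 (0.341) and Ikzf1 (-0.307), and voom called Foxp3 (0.425), Ikzf1 (-0.344) and Ikzf4 (0.283). Ikzf1 also passed with a term for Xist (-0.34), without kidney Treg 1 and lung Treg 1 (-0.409), in libraries without Xist (-0.365) and against blood alone (-0.818). Foxp3 was 1.167 and called against lymph node alone and -0.175 against blood alone. Ikzf2 lost its call against lymph node alone (0.434), with summed counts (0.379) and in libraries without Xist (0.222), and was -0.161 against spleen alone, where Ikzf4 was -0.084. Ikzf3 lost its call with summed counts (1.208).

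Between gut wall and solid organ Treg, Foxp3 became a call with no filter (0.444), with DESeq2 (0.417) and without kidney Treg 1 and lung Treg 1 (0.519). Ikzf3 lost its call with a term for Xist (0.384), with summed counts (0.539) and in libraries without Xist (0.425), and Ikzf2 gained one with the term (0.533) and in those libraries (0.553). In Tconv, DESeq2 called Ikzf2 (2.022) and Ikzf3 (2.133), and with a term for Xist Foxp3 was -0.148 and Ikzf4 -0.083. The Ikzf3 difference between tissue effects passed without kidney Treg 1 and lung Treg 1 (-0.687) and in libraries without Xist (-1.227).

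For single sources, sign changed in libraries without Xist for Foxp3 in kidney (-0.01), Ikzf1 in liver (-0.016) and Ikzf2 (-0.287) and Ikzf4 (0.131) in lung. With a term for Xist it changed for Ikzf4 in lung (0.043) and for Foxp3 (0.053) and Ikzf2 (-0.003) in pancreas. Without kidney Treg 1 and lung Treg 1 it changed for Foxp3 in lung (-0.385) and Ikzf4 in Peyer's patch (0.002), and with no filter for the latter (0.001).

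Leaving out each library in turn gave 0.377 to 0.627 for Ikzf3 between Treg and Tconv. Between tissue and lymphoid Treg it gave 0.256 to 0.506 for Foxp3, -0.376 to -0.274 for Ikzf1, 0.344 to 0.495 for Ikzf2 and 0.06 to 0.326 for Ikzf4. Between gut wall and organ Treg the range was 0.372 to 0.548 for Foxp3 and 0.455 to 0.693 for Ikzf3. In Tconv it was -0.551 to 1.122 for Foxp3 and -0.459 to 1.02 for Ikzf4, both below 0 only without lung Tconv, and 1.868 to 2.332 for Ikzf3. The Ikzf4 difference between tissue effects ran from -0.155 to 0.827. Among single sources, sign changed within -0.031 to 0.281 for Ikzf4 in liver, -0.384 to 0.287 for Foxp3 and -0.221 to 0.117 for Ikzf4 in lung, and -0.012 to 0.285 for Ikzf4 in IEL. In Peyer's patch the ranges were -0.157 to 0.084 for Ikzf1, -0.349 to 0.346 for Ikzf2 and -0.131 to 0.154 for Ikzf4.

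Counts of called genes moved by over 1.5 times as follows. Tissue against lymphoid Treg went from 3911 to 6116 with voom, 1377 against spleen, 2122 against blood and 0 in edgeR with summed counts, and gut wall against organ from 4219 to 105 with summed counts. In Tconv the count went from 0 to 18 with no filter, 1085 with DESeq2, 148 with a term for Xist and up to 111 with 1 library left out. The difference between tissue effects went from 262 to 601 with DESeq2, 436 without kidney Treg 1 and lung Treg 1, 512 in libraries without Xist, 0 in edgeR with sources as replicates (1127 at an unadjusted p below 0.05) and 137 to 438 with 1 library left out. Liver went from 200 to 519 with DESeq2, 461 with a term for Xist, 433 without kidney Treg 1 and lung Treg 1 and 52 to 437 with 1 library left out, lung from 2058 to 3284 without those 2 libraries, and Peyer's patch from 639 to 1089, 1075 and 1121 with DESeq2, without those libraries and without Xist.

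The replicate number as a block was run although the numbers showed no common pairing (5 of 30 Treg libraries correlated best with one of their own number). With the block, 635 genes passed between Treg and Tconv in place of 2571. That fit kept only the Treg and Tconv libraries of the same source and number, from 6 sources. The drop thus mixes the block with the loss of the other libraries. Within Treg, 1391 genes passed between tissue and lymphoid Treg and 1941 between gut wall and organ Treg. Among single sources the counts were 874 in kidney, 7 in liver, 400 in pancreas, 1339 in IEL, 2075 in LPL and 145 in Peyer's patch. Under the block Ikzf1 (-0.501) was called and Ikzf2 (0.498) was not between tissue and lymphoid Treg, where Ikzf4 was -0.056, and between gut wall and organ Treg Ikzf3 lost its call (0.401) and Ikzf4 was -0.038. Also under the block, sign changed for Ikzf4 in kidney (-0.018), liver (-0.125) and IEL (-0.209), Ikzf1 in liver (-0.194) and Foxp3 in lung (-0.179).

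Depth does not limit these genes in Treg. With 1 Tconv library per source, no source was tested alone, and with Xist in all lymph node libraries that source and the split cannot be told apart.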
